A study of Mus musculus with 8 samples.

Results

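The genes described here are glutathione and antioxidant genes that include targets of NRF2, measured in whole liver. A list of 43 genes was matched by symbol or older synonym to the probes of the authors' processed table, and 34 of the 43 had probes there, 52 probes in all, out of 21441 named genes and 41174 probes on the arrays. The other 9 listed genes (Gstm2, Gstm3, Gstp1, Gstz1, Mgst1, Gpx1, Txn1, Prdx1 and Sod2) were read from the scanner files by RefSeq accession and are kept apart below. The 34 matched genes are called the members.

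RNA was from 4 miR-223KO and 4 WT livers of male C57BL/6J mice, all given a high-fat diet for 3 months. Each liver RNA carried Cy5 and was hybridised on an Agilent 2-colour array against an assorted mouse RNA that carried Cy3, with no dye swap. All values below are log2 ratios of liver over that common RNA, and every difference is miR-223KO minus WT on that log2 scale. The labels do not say in which cells miR-223 was removed, nor that each array stands for a separate mouse, so the errors measure the spread between these samples. The arrays gave no reading of miR-223 used here, so the genotype labels were not checked.

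miR-223 is a microRNA best known from neutrophils and macrophages, and it represses messenger RNAs that pair with its seed. Its main mature strand is shown with the seed, bases 2 to 8, in capitals (RefSeq, GRCm38.p6, chrX:96242884-96242905, plus strand).
mmu-miR-223-3p: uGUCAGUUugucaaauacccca

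NRF2, encoded by Nfe2l2, is a transcription factor that KEAP1 holds in the cytoplasm and delivers for degradation. Oxidants and electrophiles modify KEAP1, and NRF2 then enters the nucleus and binds antioxidant response elements with small MAF partners. Its liver targets make and recycle glutathione, attach it to reactive compounds, and reduce quinones, peroxides and oxidised thioredoxin. Hepatocytes hold large amounts of many of these enzymes.

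The core of the antioxidant response element, TGACNNNGC, was searched on both strands of RefSeq promoter windows, which run from 250 bases before to 50 bases after a gene's start. It was present in 12.4% of 32851 windows, and in 8 of the 37 windows (21.6%) of the 27 members that had one. Those members were Nfe2l2, Gclm, Txnrd1, Srxn1, Gsta3, Gstm5, Gstm7 and Sod1. Shown are the windows of the regulator and of the members among them at an unadjusted p under 0.05 below, with the match in capitals; it reads as the reverse complement in Gclm and Txnrd1, where it lies on the opposite strand. The coordinates are chr2:75704875-75704913 (minus strand) for Nfe2l2, chr3:122245403-122245451 (plus) for Gclm, chr10:82859094-82859142 (plus) for Txnrd1 and chr3:107931715-107931763 (minus) for Gstm7, all on GRCm38.p6 and upstream of the start. A match is only a string of letters, and binding was not measured.
Nfe2l2: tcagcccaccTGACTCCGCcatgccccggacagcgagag
Gclm: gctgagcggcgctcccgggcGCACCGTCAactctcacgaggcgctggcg
Txnrd1: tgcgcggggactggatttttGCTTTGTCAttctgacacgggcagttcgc
Gstm7: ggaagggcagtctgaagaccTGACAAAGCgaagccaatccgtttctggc

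No member passed the test. Many members are bright in liver, and the scanner software marked many bright spots as outliers, so each gene was fitted first with such spots left out and then with them kept. With them left out, 24 of the 34 members could be tested and 0 passed a limma adjusted p under 0.05 (lowest adjusted p 0.980), where 2 of all 16748 genes and unnamed probes did (0.0119%). With them kept, 32 members could be tested and 0 passed (lowest adjusted p 0.977), where 1 of 17775 did (0.00563%). Gclc, Txnrd1, Gstt2, Gstk1, Gsto1, Gpx4, Prdx5 and Cat were tested only with flagged spots kept, since under 3 unflagged values remained in a genotype. The means of those unflagged values had the same sign as with flagged spots kept in 6 of these 8 and the other sign in Gsto1 and Prdx5. Mgst2 and Gpx7 were not well above background on the 4 arrays needed and were not tested.

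At an unadjusted p under 0.05, 4 members were higher with flagged spots left out, Nqo1, Gsta2, Mgst3 and Gpx3, beside 2.3% of all tested. Lower at that p was 1 member, Gstm7, beside 2.37%. With flagged spots kept the higher members at that p were Gclm, Nqo1, Gsta2, Gpx3 and Gpx4 (5 of 32), beside 2.3% of all tested, and the lower ones Txnrd1 and Gstm7 (2 of 32), beside 2.42%. Without WT 1, 1 member stood at that p with flagged spots left out, beside 5.21% of all tested in either direction. With them kept it was also 1, beside 5.46%. The 4 miR-223KO arrays all lay above the 4 WT arrays in 1 member, Prdx2 with flagged spots left out, beside 1.64% of all tested, and in 1 member, Gclm, with them kept, beside 1.47%. In 0 members did all miR-223KO arrays lie below all WT arrays, beside 1.44% of all tested with flagged spots left out and 1.27% with them kept. Without WT 3, groups did not overlap in either direction in 6 members with flagged spots left out, beside 6.3% of all tested, and in 5 with them kept, beside 5.27%.

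The members' median difference was 0.11 with flagged spots left out (16 higher, 8 lower, range -0.48 to 0.76) and 0.14 with them kept (22 higher, 10 lower). The median over all tested was -0.01 in both fits. With flagged spots left out the members' median was 0.034 without WT 2, 0.05 without miR-223KO 3 and 0.21 without WT 3. The arrays lay on 2 slides, each with 2 miR-223KO and 2 WT arrays. Within slide 1 the members' median difference was 0.25 with 18 of 24 higher, and within slide 2 it was 0.02 with 12 of 24 higher, flagged spots left out. With flagged spots kept it was 0.17 within slide 1 and 0.14 within slide 2.

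**Figure D1:**
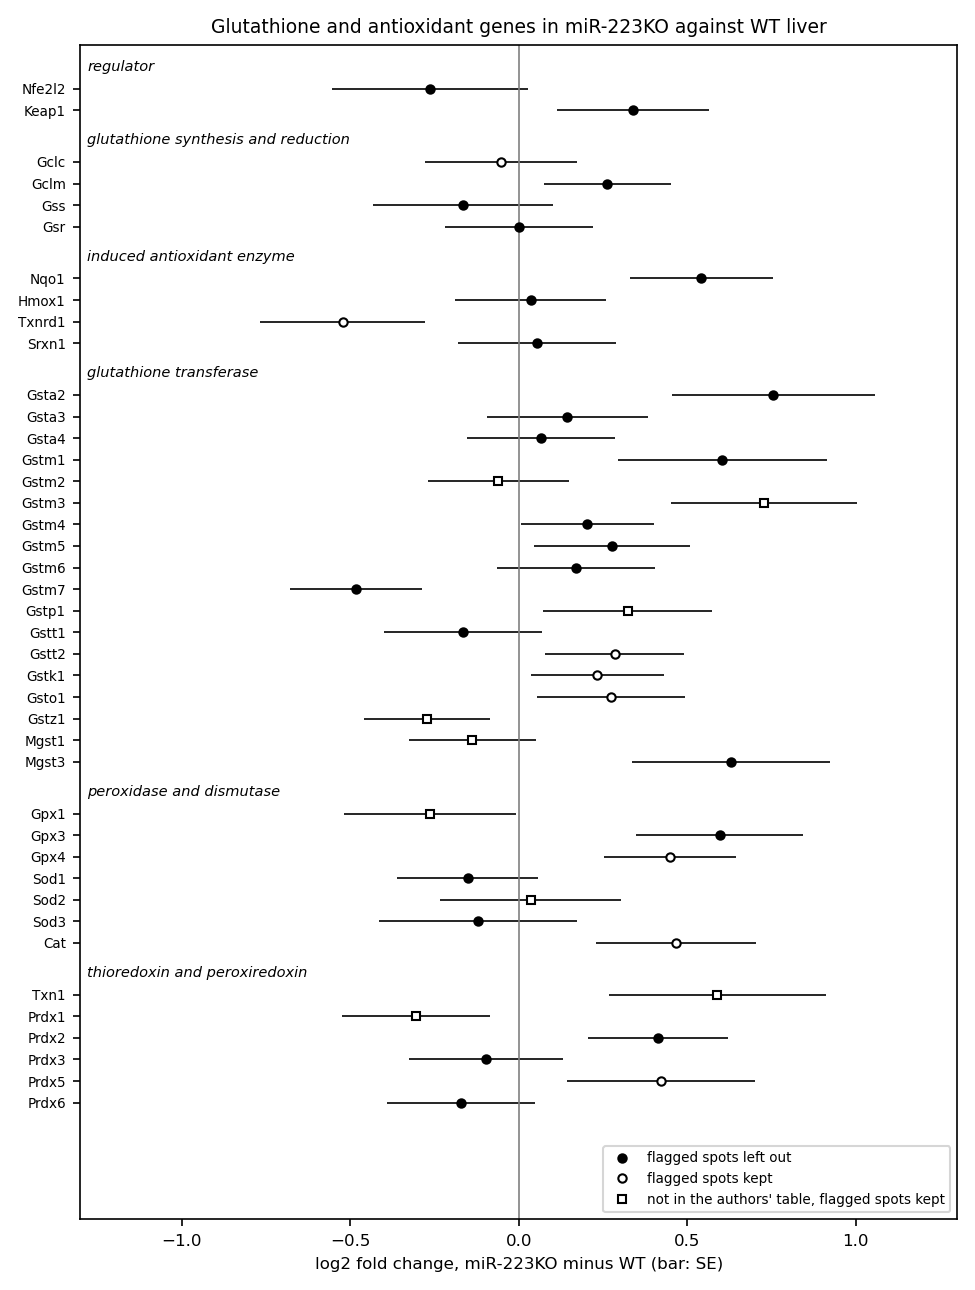
Log2 fold change, miR-223KO minus WT (x axis), of the 41 listed genes that could be tested, by role, with the standard error from limma as bars. Filled circles are fits without flagged spots, open circles members tested only with flagged spots kept, and open squares the 9 genes outside the authors' table. Values run from -0.52 for Txnrd1 to 0.76 for Gsta2, and none of the genes passed the adjusted test.

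Both regulators gave arrays that overlapped between the genotypes. Nfe2l2 read -0.46, 0.66, -0.44 and 0.26 on miR-223KO arrays 1 to 4, against 0.41, 0.74, 0.45 and -0.53 on WT arrays 1 to 4. The difference was -0.26 ± 0.29 (SE), with high and low arrays in both genotypes. The other Nfe2l2 probes differed by 0.27 and 0.05, the other way. Keap1, the NRF2 adaptor, read -0.68, -0.22, 0.33 and 0.12 on the miR-223KO arrays, against -0.36, -0.27, -0.82 and -0.36 on the WT arrays. Its difference was 0.34 ± 0.22 (SE), with 0.81 on slide 2 and -0.14 on slide 1.

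Glutathione is made by glutamate-cysteine ligase, with a catalytic subunit (Gclc) and a modifier subunit (Gclm), and then by glutathione synthetase (Gss). Glutathione reductase (Gsr) regenerates it. Gclm read 0.29, 0.37, -0.15 and -0.26 on miR-223KO arrays 1 to 4 with flagged spots kept, against -0.62, -0.41, -0.47 and -0.27 on the WT arrays. All 4 miR-223KO arrays lay above the WT arrays, with miR-223KO 4 at -0.26 next to WT 4, a flagged spot, at -0.27. Means were 0.06 ± 0.31 in miR-223KO and -0.45 ± 0.15 in WT (SD, n = 4 each). The difference was 0.51 ± 0.20 (SE), 1.42-fold, with an unadjusted p of 0.0203 and a limma adjusted p of 0.977. It was 0.85 on slide 1 and 0.17 on slide 2. Cy5 alone differed by 0.21 and the common RNA in Cy3 by -0.30. Another Gclm probe with no flagged spot read 0.51, -0.12, 0.26 and -0.03 on the miR-223KO arrays, against -0.004, -0.07, -0.16 and -0.20 on the WT arrays. There the genotypes overlapped, and the difference was 0.26 ± 0.19 (SE).

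The catalytic subunit, the synthetase and the reductase overlapped between the genotypes. Gclc read 0.01, -0.07, 0.35 and -0.53 on the miR-223KO arrays with flagged spots kept, against -0.28, 0.14, -0.28 and 0.39 on the WT arrays, a difference of -0.05 ± 0.22 (SE). The unflagged Gclc values, 2 in miR-223KO and 3 in WT, differed by -0.38. Gss read 0.32, 0.23 and -0.27 on miR-223KO arrays 1, 2 and 4, the spot on array 3 being flagged, against -0.27, 0.27, 0.95 and 0.08 on the WT arrays, a difference of -0.17 ± 0.27 (SE). Gsr read -0.22, -0.12, 0.27 and -0.24 on the miR-223KO arrays, against 0.14, -0.04, -0.68 and 0.25 on the WT arrays. This probe differed by 0.001 ± 0.22 (SE) and the other Gsr probes by 0.37 and 0.24.

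Nqo1, the quinone reductase often used as a readout of NRF2 activity, had the tightest miR-223KO values of the induced enzymes with flagged spots left out. It read 0.49, 0.24, 0.46 and 0.46 on miR-223KO arrays 1 to 4, against -0.69, -0.16, 0.30 and 0.02 on WT arrays 1 to 4. Only WT 3 reached into the range of the miR-223KO arrays. Means were 0.41 ± 0.11 in miR-223KO and -0.13 ± 0.42 in WT (SD, n = 4 each), a difference of 0.54 ± 0.21 (SE) or 1.46-fold. The unadjusted p was 0.0206 and the limma adjusted p 0.980. The difference was positive on both slides, 0.79 and 0.30. In the Cy5 channel alone it was 0.76, and the common RNA in Cy3 differed by 0.21 the same way.

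Other induced enzymes lay near 0 or lower in the probes that stood for them. Hmox1, heme oxygenase 1, read -0.18, -0.80, 0.08 and -0.35 on the miR-223KO arrays, against -0.45, -0.69, 0.13 and -0.39 on the WT arrays, a difference of 0.04 ± 0.22 (SE). Srxn1, sulfiredoxin, which reactivates overoxidised peroxiredoxins, read 0.28, -0.39 and -0.54 on miR-223KO arrays 1, 2 and 4, against 0.004, -0.28, -0.25 and -0.57 on the WT arrays. The Srxn1 difference was 0.05 ± 0.23 (SE). Its other probes differed by 0.29 and -0.24 with flagged spots left out, the latter over 3 miR-223KO and 2 WT values. The genotypes overlapped in both genes. Txnrd1, cytosolic thioredoxin reductase, read -0.54, -0.07, -0.18 and -0.38 on miR-223KO arrays with flagged spots kept, against 0.16, -0.26, 0.99 and 0.03 on WT arrays. The difference was -0.52 ± 0.24 (SE), unadjusted p 0.0489 and limma adjusted p 0.977, and the high value of WT 3 was a flagged spot. Without flagged spots, with under 3 values in a group, the Txnrd1 means differed by -0.35. Flagged spots kept, Txnrd1 differed by -0.22 in Cy5 alone and by 0.305 in Cy3.

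**Figure D2:**
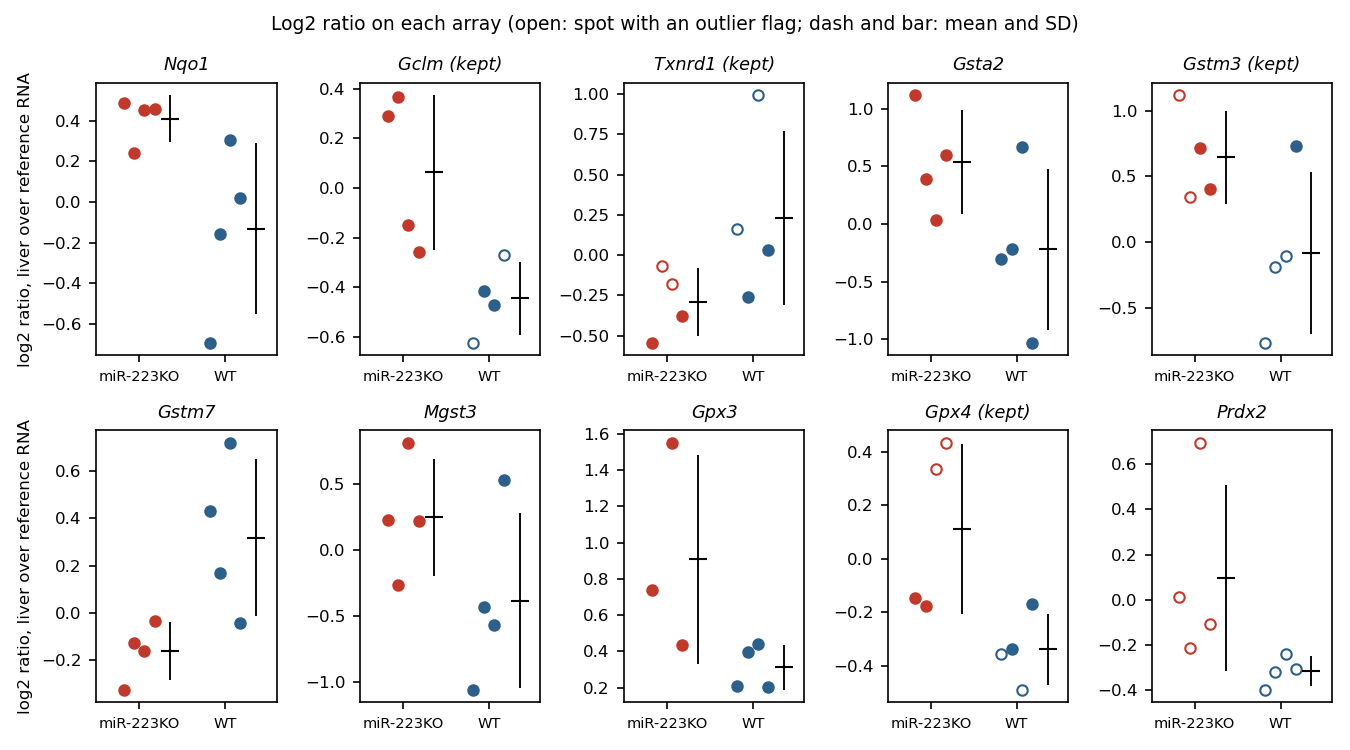
Log2 ratio of liver over common RNA (y axis, own scale per gene) on each miR-223KO array (red, left) and each WT array (blue, right) for the listed genes at an unadjusted p under 0.05 or with groups that did not overlap in either fit. Open points had an outlier flag on at least 1 of the probe's spots, the dash and bar are mean and SD, and "kept" marks genes shown with flagged spots kept; Nqo1 has 1 WT array, at 0.30, above the lowest miR-223KO array, at 0.24.

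Glutathione transferases couple glutathione to electrophiles, and the alpha, mu and pi classes are abundant in mouse liver. Of 14 members of this kind, 10 were tested with flagged spots left out, of which 8 were higher and 2 lower, with a median difference of 0.19. Within slide 1 their median was 0.37 and within slide 2 -0.02. Genes of a class have close relatives in the genome, and hybridisation of one gene's RNA to another's probe was not tested.

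Gsta2, an alpha-class transferase, had the largest difference of the 24 members tested with flagged spots left out. It read 1.12, 0.39, 0.03 and 0.60 on miR-223KO arrays 1 to 4, against -0.30, -0.21, 0.67 and -1.03 on WT arrays 1 to 4. WT 3 lay within the range of the miR-223KO arrays. Means were 0.54 ± 0.45 in miR-223KO and -0.22 ± 0.70 in WT (SD, n = 4 each), a difference of 0.76 ± 0.30 (SE) or 1.69-fold, unadjusted p 0.0237 and limma adjusted p 0.980. It was 1.01 on slide 1 and 0.50 on slide 2. Cy5 alone differed by 0.47, and the common RNA in Cy3 by -0.28.

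The other alpha-class members gave small differences. Gsta3 read 0.59, 0.64 and 0.34 on miR-223KO arrays 1 to 3, against 0.25, 0.07 and 0.81 on WT arrays 1 to 3, array 4 of each being flagged, a difference of 0.14 ± 0.24 (SE). Gsta4, which acts on lipid peroxidation products such as 4-hydroxynonenal, read 0.12, -0.17, 0.45 and 0.26 on the miR-223KO arrays, against 0.25, -0.48, 0.42 and 0.22 on the WT arrays, a difference of 0.07 ± 0.22 (SE). The genotypes overlapped in both genes.

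In the mu class, Gstm1 depended on single spots. With flagged spots left out it read 1.08, 0.89 and 0.79 on miR-223KO arrays 1, 2 and 4, against -0.37, 0.20 and 1.12 on WT arrays 1, 2 and 3, a difference of 0.60 ± 0.31 (SE). The flagged spots left out there read -0.44 on miR-223KO 3 and 0.71 on WT 4, and with them kept the difference was 0.17 ± 0.34 (SE). It was 1.07 on slide 1 and -0.74 on slide 2 with flagged spots kept. A further Gstm1 probe, outside the authors' table, differed by 0.78 with flagged spots kept, and its spots on all 4 WT arrays were flagged. Gstm7 was the lower member of the class: it read -0.33, -0.13, -0.16 and -0.04 on the miR-223KO arrays, against 0.43, 0.17, 0.72 and -0.05 on the WT arrays. WT 4 was the only WT array within the miR-223KO range. The difference was -0.48 ± 0.20 (SE), unadjusted p 0.0255 and limma adjusted p 0.980, and it was -0.53 and -0.44 on the slides. Cy5 alone differed by -0.29 and Cy3 by 0.19. Another Gstm7 probe differed by -0.05. Gstm4, Gstm5 and Gstm6 differed by 0.20, 0.28 and 0.17, each within 1.5 times its standard error.

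Gstm3, outside the authors' table, read 1.12, 0.34, 0.72 and 0.40 on miR-223KO arrays with flagged spots kept, against -0.77, -0.19, -0.10 and 0.73 on WT arrays. Its difference was 0.73 ± 0.28 (SE), unadjusted p 0.0186 and limma adjusted p 0.977, with 1.21 on slide 1 and 0.25 on slide 2. Of the 8 arrays, 2 miR-223KO and 3 WT had a flagged spot, which left too few values to test without them. The unflagged values, 0.72 and 0.40 in miR-223KO and 0.73 in WT, differed by -0.17, the other way. Flagged spots kept, Cy5 alone differed by 0.48 and Cy3 by -0.25. Gstp1, the pi-class transferase, was also outside the table. With flagged spots kept it read 0.26, 0.40, 0.90 and -0.09 on the miR-223KO arrays, against 0.28, 0.54, -0.18 and -0.46 on the WT arrays. That difference was 0.32 ± 0.25 (SE). Flags fell on 2 miR-223KO arrays and all 4 WT arrays, so the genotypes could not be compared without flagged spots. A second Gstp1 probe, flagged on 4 miR-223KO and 3 WT arrays, differed by -0.11.

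Mgst3, a microsomal transferase with peroxidase activity, read 0.23, -0.27, 0.81 and 0.22 on the miR-223KO arrays, against -1.06, -0.44, -0.57 and 0.53 on the WT arrays. WT 4 lay among the miR-223KO arrays. The difference was 0.63 ± 0.29 (SE) or 1.55-fold, unadjusted p 0.0476 and limma adjusted p 0.980, and it was 0.73 and 0.53 on the slides. Cy5 alone differed by 0.62 and Cy3 by -0.01. Another Mgst3 probe differed by 0.28. Gstt1, of the theta class, differed by -0.17 ± 0.23 (SE). Gstt2, Gstk1 and Gsto1 differed by 0.28, 0.23 and 0.27 with flagged spots kept, each under 1.5 times its standard error, and by 0.14, 0.54 and -0.05 over their unflagged values. Among the genes outside the table, Gstm2, Gstz1 and Mgst1 differed by -0.06, -0.27 and -0.14 with flagged spots kept. A second Mgst1 probe, with every spot flagged, differed by 0.47.

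Among the peroxidases, Gpx3 is the secreted glutathione peroxidase of plasma, which in mice comes mainly from the kidney. It read 0.74, 1.55 and 0.43 on miR-223KO arrays 1, 3 and 4, against 0.21, 0.40, 0.44 and 0.20 on the WT arrays. The flagged spot of miR-223KO 2 read 0.95, also above the WT arrays, and only miR-223KO 4 reached into their range. The difference was 0.60 ± 0.25 (SE) or 1.51-fold, unadjusted p 0.0292 and limma adjusted p 0.980, at 0.44 on slide 1 and 0.67 on slide 2. With flagged spots left out, Cy5 alone differed by 0.33 and the common RNA in Cy3 by -0.26.

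Gpx4, which reduces phospholipid hydroperoxides and protects cells from ferroptosis, read -0.15, -0.18, 0.33 and 0.43 on the miR-223KO arrays with flagged spots kept, against -0.36, -0.34, -0.49 and -0.17 on the WT arrays. Its difference was 0.45 ± 0.20 (SE), unadjusted p 0.0366 and limma adjusted p 0.977, and both high miR-223KO values were flagged spots. The unflagged miR-223KO and WT means differed by 0.09. Flagged spots kept, Cy5 alone differed by 0.33 and Cy3 by -0.12. Cat, peroxisomal catalase, read 0.99, 1.58, 1.17 and 0.77 on the miR-223KO arrays with flagged spots kept, against 0.29, 1.00, 0.29 and 1.06 on the WT arrays. That was a difference of 0.47 ± 0.24 (SE), 0.64 and 0.30 on the slides, with the genotypes overlapping. Gpx1, the main cytosolic glutathione peroxidase and outside the table, read 0.45, 1.54, 0.74 and 0.56 on the miR-223KO arrays, against 0.71, 0.99, 1.64 and 1.01 on the WT arrays, a difference of -0.26 ± 0.26 (SE) with flagged spots kept. The unflagged Gpx1 spots, 1 in miR-223KO and 2 in WT, differed by 0.68, the other way.

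The superoxide dismutases, which turn superoxide into hydrogen peroxide, showed no common direction. Sod1, the cytosolic enzyme, read 0.09, -0.14, -0.37 and -0.51 on the miR-223KO arrays, against 0.07, -0.32, -0.38 and 0.31 on the WT arrays, a difference of -0.15 ± 0.21 (SE). Another Sod1 probe of the table differed by 0.04. A Sod1 probe outside it differed by 0.28 with flagged spots kept, the other way, and every spot of it was flagged. That probe was brighter, with a mean log2 signal of 14.5 against 8.45 for the probe read here. Sod2, the mitochondrial enzyme and outside the table, read 0.15, -0.15, -0.39 and -0.70 on the miR-223KO arrays with flagged spots kept, against -0.81, -0.75, -0.05 and 0.38 on the WT arrays, a difference of 0.04 ± 0.27 (SE). Every Sod2 spot was flagged. Slide 1 gave 0.78 and slide 2 -0.71 for Sod2, and the extracellular Sod3 gave 0.58 and -0.82, around a difference of -0.12 ± 0.29 (SE).

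Peroxiredoxins remove peroxides with electrons from thioredoxin. Prdx2, the cytosolic form abundant in red cells, read 0.01, -0.21, 0.70 and -0.11 on the miR-223KO arrays with flagged spots left out, against -0.40, -0.32, -0.24 and -0.31 on the WT arrays. All 4 miR-223KO arrays lay above the WT arrays. The difference was 0.41 ± 0.21 (SE), unadjusted p 0.0632 and limma adjusted p 0.980; with flagged spots kept it was 0.22 ± 0.18 (SE) and the genotypes overlapped. On every array some spots of this probe were flagged, and the other Prdx2 probes differed by -0.29 and 0.49 with flagged spots left out. Cy5 alone differed by 0.49 and Cy3 by 0.07 for the probe read here. Prdx6, which also reduces phospholipid peroxides, read 0.05, 0.52, 0.15 and -0.17 on the miR-223KO arrays, against 0.004, 0.44 and 0.48 on WT arrays 1, 3 and 4, a difference of -0.17 ± 0.22 (SE). Prdx3, the mitochondrial form, differed by -0.10, and Prdx5 by 0.42 ± 0.28 (SE) with flagged spots kept. The unflagged Prdx5 spots, 1 in miR-223KO and 3 in WT, differed by -0.20, the other way.

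Prdx1, outside the table, read -0.41, 0.19, 0.29 and -0.12 on the miR-223KO arrays with flagged spots kept, against 0.44, -0.20, 0.36 and 0.57 on the WT arrays, a difference of -0.30 ± 0.22 (SE). Every Prdx1 spot was flagged. Txn1, thioredoxin, differed by 0.59 ± 0.32 (SE) with flagged spots kept, with miR-223KO 4 at 1.39 and the other miR-223KO arrays between -0.29 and -0.12, against WT arrays between -0.73 and 0.04. Of the 9 genes outside the table, 4 were higher and 5 lower with flagged spots kept, with a median of -0.06.

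**Figure D3:**
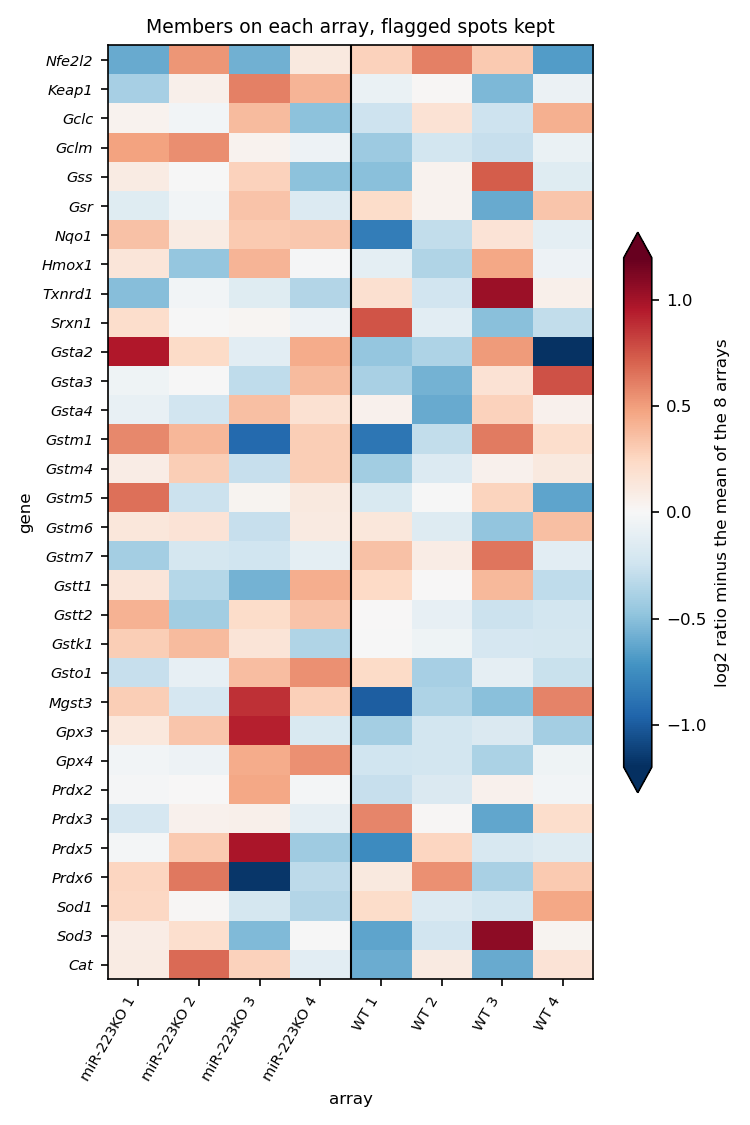
Each cell is a member's log2 ratio on 1 array minus its mean over the 8 arrays (colour, from -1.19 to 1.07), for the 32 members tested with flagged spots kept; miR-223KO arrays are left of the line and WT arrays right of it. Reds and blues stand on both sides, and no array is red or blue throughout.

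The members' highest and lowest values fell on every array, in unequal numbers. With flagged spots kept, the members' median deviation from their own mean was 0.10, 0.01, 0.11 and -0.01 on miR-223KO arrays 1 to 4, against -0.15, -0.16, -0.14 and -0.06 on WT arrays 1 to 4. The same medians over all tested ran from -0.02 to 0.01. Between arrays of a genotype the members' median had a pooled SD of 0.054. Members with their highest value on miR-223KO arrays 1 to 4 numbered 4, 4, 7 and 4. On WT arrays 1 to 4 they numbered 2, 1, 6 and 4. Lowest values numbered 2, 2, 3 and 3 on the miR-223KO arrays, and 8, 3, 7 and 4 on the WT arrays.

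**Figure D4:**
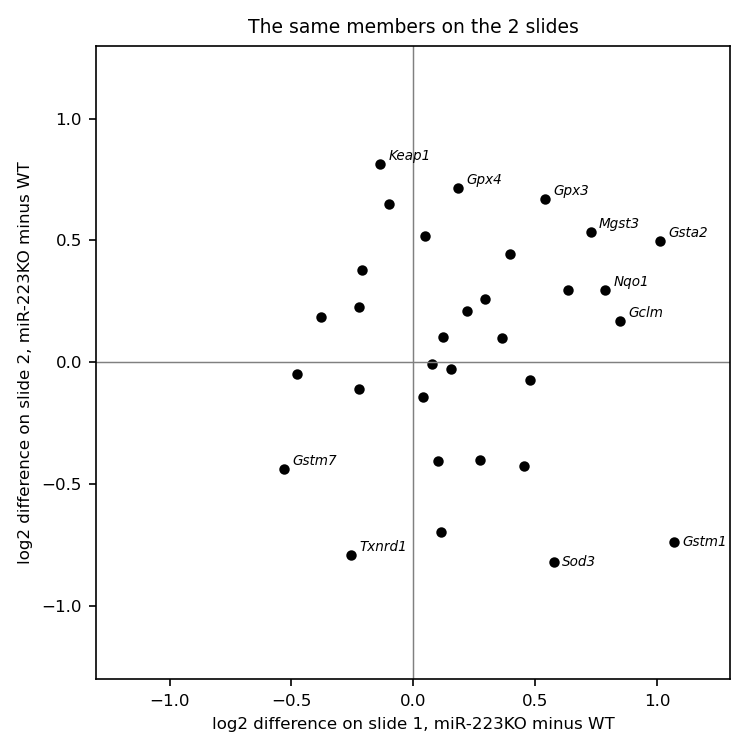
Difference in log2 ratio, miR-223KO minus WT, on slide 1 (x axis) and on slide 2 (y axis) for the 32 members tested with flagged spots kept, each from 2 miR-223KO and 2 WT arrays. Gsta2, Nqo1, Mgst3, Gclm and Gpx3 lie in the upper right, Gstm7 and Txnrd1 in the lower left, and Gstm1 and Sod3 change sign between the slides.

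Of 80 other genes of glutathione metabolism and the NRF2 pathway, 59 were tested with flagged spots left out. Of these 30 were higher and 29 lower, 0 passed the limma adjusted p, 0 had an unadjusted p under 0.05, and the median difference was 0.03. All miR-223KO arrays lay below all WT arrays in Gpx2, a glutathione peroxidase best known from the gut (-0.34 ± 0.18, SE), and in Gsto2, an omega-class transferase (-0.27 ± 0.17, SE), beside the 1.44% given above. In Gpx2 Cy5 alone differed by -0.94 and Cy3 by -0.61, while in Gsto2 both channels were higher, by 0.09 in Cy5 and 0.36 in Cy3. Cy5 was well above background on 3 miR-223KO and 4 WT arrays for Gpx2, and on 3 and 3 for this Gsto2 probe. A second Gsto2 probe differed by -0.08.

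Markers of cell types were read with flagged spots kept, since whole liver was used and fewer cells of a type and less RNA per cell cannot be told apart. All 8 hepatocyte markers on the arrays were above background on at least 4 of them; 7 were lower and 1 higher, with a summed ratio of 10.6 to 14.3 in miR-223KO and 13.6 to 23.0 in WT. Of 10 Kupffer cell and macrophage markers, 9 were higher and 1 lower, with a median difference of 0.43. Their summed ratio was 10.1 to 14.8 in miR-223KO and 7.44 to 15.2 in WT. Gpnmb, a macrophage marker, was above background on no array. Higher and lower numbered 2 and 5 for centrilobular and 3 and 2 for periportal hepatocytes (median differences -0.05 and 0.02), against a median of -0.22 for the hepatocyte list. They numbered 5 and 1 for endothelium, 4 and 2 for stellate cells, 1 and 4 for cholangiocytes and 2 and 3 for erythroid cells. For neutrophils they numbered 2 and 5, for T, NK and B cells 3 and 5, and for adipocytes 1 and 2. None of these markers passed the limma test, and their part in the members' values was not tested. The share of probes with Cy5 well above background ran from 49.5% to 69.8% over the arrays, 2% to 5.67% of spots were flagged, and 0 spots were saturated.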

How the data were processed

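Per the labels, liver RNA was labelled with Cy5 and assorted mouse RNA with Cy3. Spots of the arrays, of design 014868, were quantified by Agilent Feature Extraction 12.0.3.1, per the file headers. The deposited scanner files hold spot and background intensity values. The deposited LogRatio is a log10 ratio of the processed signals, per the file headers, and the authors' deposited table holds log2 ratios of 40646 probes. From these files, median signals were corrected with normexp (offset 50) and normalised within arrays by loess in limma 3.58.1 under R 4.3.3. Flagged local backgrounds were replaced by the median of the array and channel, and spots of a probe were averaged. Differences of Cy5 or Cy3 alone were taken after loess and Aquantile, so their split depends on that step.

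Probes entered the test with 3 values in each group and with Cy5 well above background in at least 4 of the 8 arrays. The brightest such probe stood for its gene. For a listed gene with probes in the authors' table, only those probes were eligible, even where a probe outside it was brighter. The groups were compared by limma's moderated two-sided test (lmFit, eBayes) with outlier-flagged spots left out and, separately, kept, and p-values were adjusted by Benjamini-Hochberg across all genes and unnamed probes. Probes were named by RefSeq accession or the authors' symbol, and 5810 had no name. Alternatives in background correction, normalisation, filter, probe choice, slide, replicate block and arrays left out were tried, and the procedure was tested on simulated data.

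The members, the gene lists and both fits were chosen with earlier results of these data known. Values on every array were given for a fixed set of genes by role, and for listed genes at an unadjusted p under 0.05 or with groups that did not overlap in either fit. Other members were given by their difference. Promoter and microRNA sequences are RefSeq's (GRCm38.p6); all 43 listed genes matched a RefSeq gene. The longest run shared by probes of different members was 10 bases.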

Additional observations from a re-analysis of the deposited data

Results flagged for a closer look

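In 72 groups of 4 arrays, 1 array stood far from the other 3 by Dixon's test in 3 of them, and chance flags about 1 in 20 groups. Keap1 read -0.82 on WT 3, against -0.36 to -0.27 on the other WT arrays. Nqo1 read 0.24 on miR-223KO 2, against 0.46 to 0.49 on the other miR-223KO arrays, so the outlying array was the lowest of a tight group. Txn1 read 1.39 on miR-223KO 4, its only unflagged miR-223KO spot, against -0.29 to -0.12 on the other miR-223KO arrays with flagged spots kept.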

How the results depend on the processing

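No listed gene passed the limma test in any of 875 alternatives followed for 41 genes (lowest adjusted p 0.541). In 16 genes the difference had the same sign in every alternative, among them Gclm, Nqo1, Txnrd1, Gsta2, Gstm3, Gstm7, Mgst3, Gpx3, Gpx4 and Prdx2. These alternatives held no fit without flagged spots for genes with under 3 unflagged values in a genotype, and over such values Gstm3 and Prdx5, both among the 16, turned from 0.73 and 0.42 to -0.17 and -0.20. Where a sign turned within the 875 alternatives, no limma unadjusted p on either side was under 0.05, and such turns were not counted as reversals. Differences within a slide had no p. The turns over unflagged values stood outside that count, and Gstm3 had an unadjusted limma p of 0.0186 with flagged spots kept. With flagged spots left out, the count over all genes and unnamed probes was 2; it was 1 with Feature Extraction's processed signals, with median centring, with the mean of a gene's probes, with the authors' values and with flagged spots kept, and 4 with a normexp offset of 16. With flagged spots kept the count was 1; it was 3 with the offset of 16, with the filter on all 8 arrays, with slide as a block and with the replicate number as a block, and 2 with array weights. Members at an unadjusted p under 0.05 numbered 5 with flagged spots left out and 3 with processed signals, mean of probes or authors' values. With them kept it was 7, and 3 with processed signals or authors' values. Members without overlap numbered 1 with flagged spots left out. This was 2 with median centring, 0 with the mean of probes and 3 with authors' values. With them kept it was 1, and 3 with processed signals or authors' values and 2 with the offset of 16 or median centring. Shares over all tested were not taken for these alternatives, so their counts cannot be compared with those of all genes. The members' median of 0.11 was 0.24 with median centring, 0.17 with the mean of probes, 0.25 within slide 1 and 0.015 within slide 2; with flagged spots kept, 0.14 became 0.36 with median centring. The median over all genes was 0.08 and 0.09 under that centring. The other pathway genes' median of 0.03 was 0.11 with median centring and -0.023 within slide 2. The cause of these shifts was not tested.

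Leaving out 1 array gave 2 to 4 genes past the test over all genes with flagged spots left out and 1 to 4 with them kept, and 0 members in either. Members at an unadjusted p under 0.05 ranged from 1 to 6 with flagged spots left out and from 1 to 8 with them kept. With flagged spots left out the number was 1 without WT 1, beside 5.21% of all tested, and 3 without WT 4, miR-223KO 1 or miR-223KO 3. With them kept it was 1 without WT 1, beside 5.46%, 4 without WT 3, beside 4.54%, and 4 without miR-223KO 1 or miR-223KO 3. Shares over all tested were taken only without WT 1 and without WT 3, so the other counts here cannot be compared with those of all genes. Members whose groups did not overlap ranged from 1 to 6 (6 without WT 3, beside 6.3% of all tested) and from 1 to 5 (5 without WT 3, beside 5.27%), and members higher in miR-223KO from 13 to 18 and from 19 to 23. The members' median ranged from 0.034 (without WT 2) to 0.21 (without WT 3), with 0.05 without miR-223KO 3, and from 0.074 (without WT 2) to 0.22 (without WT 3) with flagged spots kept, with 0.08 without miR-223KO 1. The other pathway genes' median ranged from -0.030 to 0.059. Replicate numbers did not pair the samples: same-numbered samples' deviations correlated at -0.002, 0.06, 0.01 and -0.02, and with the replicate number as a block 0 members passed and the members' median stayed at 0.11. Scan parted the arrays as slide did and was not run apart. With Aquantile between arrays the log2 ratios do not change by construction. Mgst2 and Gpx7 were too near background to test.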

Other observations

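With flagged spots kept, 2 of 73 other pathway genes tested were higher at an unadjusted p under 0.05 in limma and 0 were lower, beside 2.3% and 2.42% of all tested. They were named after their values were seen. Taldo1, transaldolase of the pentose phosphate pathway that supplies NADPH, differed by 0.43 ± 0.19 (SE), unadjusted limma p 0.0360 and adjusted p 0.977. All 4 of its miR-223KO arrays lay above the WT arrays, but all 4 miR-223KO spots and 1 WT spot were flagged. Of the 73 genes, groups did not overlap in 1 higher and 2 lower, beside 1.47% and 1.27% of all tested. Ugdh, which makes UDP-glucuronic acid for conjugation, differed by 0.49 ± 0.20 (SE), unadjusted p 0.0282 and adjusted p 0.977, with overlapping genotypes, and by 0.27 over its unflagged values, 2 in miR-223KO and 4 in WT.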
